A study of Mus musculus with 2 samples.

Results

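The axonemal dynein module comprised the motor subunits of the dynein arms of motile cilia, the factors that assemble the arms in the cytoplasm, and the proteins that attach them to the axoneme. It was fixed as 32 listed genes, of which 31 were rows of the deposited tables, together with the 4 further rows whose symbol is Dnah followed by a digit (Dnah7c, Dnah14, Dnah17 and Dnah2os), so that 35 of 24071 rows were members. The listed gene without a row was Pih1d3. Its relative Pih1h3b was a row but not a member. Dnah2os is an antisense RNA of Dnah2, not a dynein, and entered through its symbol alone.

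The members were described in 2 libraries of live CD45-negative CD133+ spinal cord cells from C57BL/6j mice aged 10 to 12 weeks. All mice carried Cre at both copies of Clec9a, the gene of the dendritic cell receptor DNGR-1, and at both Rosa26 copies a tdTomato reporter that Cre switches on for good, so that tdTomato marks cells with a present or past history of Clec9a expression. Cells positive for tdTomato made up the CD133+ DNGR-1 traced library and negative cells the CD133+ non-traced library. Clec9a-Cre carries the history of a cell and its ancestors, so that the traced label does not date expression to the adult, and the knock-in removes functional DNGR-1 from both groups. Each group was 1 library, so that no value has a replicate check, the groups could not be tested against each other, and every difference given here compares these libraries. Intervals are 95% exact intervals and cover counting error only.

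Motile cilia of ependymal cells move the cerebrospinal fluid. Their axoneme is a ring of doublet microtubules, along which outer dynein arms set the beat frequency and inner dynein arms shape the bend. Each arm is built around heavy chains, which are very large ATPase motors, and is put together in the cytoplasm with the help of chaperones and dedicated assembly factors before it is carried into the cilium. Factors of the RFX family bind X-box motifs in promoters of many ciliary genes, and FOXJ1 is the forkhead factor of motile ciliogenesis.

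RefSeq promoter windows of 250 bases before to 50 bases after the start (GRCm38.p6) were found for 29 of the 35 members. On either strand, the core of an X-box (GT and CC with 2 free bases between them, 2 free bases, then GG, a free base and AAC) was present in 3 of these 29 windows (10.3%) and in 1.29% of all 32851 windows in the table. The narrower form, in which GTT and CC are 1 free base apart, was present in 1 member window (3.45%), that of Ccdc151, and in 0.451% of all windows. The short motif GTTGCC, which makes up 1 arm of such a site and can lie inside it, was present in 10 member windows (34.5%) and in 12.5% of all windows. These 10 include the windows of Dnah7a, Dnah7b and Dnah7c, copies of 1 gene with closely similar windows, so that they are not independent matches. The forkhead letters TGTTTAC were present in 1 member window (3.45%), that of Dnah17, and in 3.65% of all windows. Looser forms of the X-box were not searched. The windows with the core are given below, and for comparison that of the heavy chain Dnah7b, which of these motifs holds only the short one. All are printed 5′ to 3′ on the strand of the gene, with the matched letters of any of these motifs in capitals (in Zmynd10 and Dnaaf5 the core matches on the reverse strand). They lie at chr9:107547054-107547353 (plus strand) for Zmynd10, chr5:139149985-139150284 (plus strand) for Dnaaf5, chr9:22002585-22002884 (minus strand) for Ccdc151 and chr1:46066603-46066902 (plus strand) for Dnah7b. A match describes letters and was not tested for binding.
Zmynd10: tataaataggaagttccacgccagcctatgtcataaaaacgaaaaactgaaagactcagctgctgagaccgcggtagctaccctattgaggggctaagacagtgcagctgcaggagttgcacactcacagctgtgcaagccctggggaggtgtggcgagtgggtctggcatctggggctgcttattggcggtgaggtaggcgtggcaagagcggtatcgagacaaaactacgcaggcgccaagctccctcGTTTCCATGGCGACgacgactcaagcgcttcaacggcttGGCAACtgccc
Dnaaf5: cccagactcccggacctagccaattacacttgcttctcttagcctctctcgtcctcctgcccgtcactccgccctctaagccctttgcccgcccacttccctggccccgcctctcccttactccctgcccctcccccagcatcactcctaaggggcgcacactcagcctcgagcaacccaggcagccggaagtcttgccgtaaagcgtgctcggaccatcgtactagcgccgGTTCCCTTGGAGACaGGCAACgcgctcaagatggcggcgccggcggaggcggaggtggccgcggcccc
Ccdc151: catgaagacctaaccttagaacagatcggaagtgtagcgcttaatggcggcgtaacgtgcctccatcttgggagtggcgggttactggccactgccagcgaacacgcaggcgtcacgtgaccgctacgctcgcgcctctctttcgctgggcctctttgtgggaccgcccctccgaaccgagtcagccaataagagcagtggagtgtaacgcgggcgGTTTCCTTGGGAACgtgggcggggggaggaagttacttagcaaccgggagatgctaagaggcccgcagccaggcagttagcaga
Dnah7b: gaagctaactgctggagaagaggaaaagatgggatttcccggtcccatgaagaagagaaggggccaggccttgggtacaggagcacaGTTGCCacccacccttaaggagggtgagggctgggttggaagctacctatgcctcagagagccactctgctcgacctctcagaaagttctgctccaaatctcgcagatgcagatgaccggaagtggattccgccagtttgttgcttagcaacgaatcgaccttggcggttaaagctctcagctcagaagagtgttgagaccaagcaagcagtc

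The traced library held 4825 cells (median 8566 UMIs, the tags that mark single captured RNA molecules) and the non-traced library 25411 cells (median 7218 UMIs). Ependymal-like cells, named from 10 marker genes that include no member, were 4755 of 4825 traced cells (98.5%) and 1159 of 25411 non-traced cells (4.56%). Their summed ependymal markers were 10645 CPM (UMIs of a gene or list scaled to a common total of UMIs) in the traced and 11695 CPM in the non-traced library, against 15.6 CPM in the non-traced endothelial-like cells. Most of the non-traced library was endothelial-like (15755 cells), and endothelial transcripts were also counted in its ependymal-like cells. There the 8 endothelial markers summed to 355 CPM (interval 342 to 368), against 36.1 CPM (34.3 to 37.8) in traced ependymal-like cells, and 484 of 1159 cells (41.8%) had UMIs of at least 2 of 4 vascular genes, against 4 of 4755 (0.0841%). The libraries shared 42 cell barcodes, of which 42 were of ependymal-like cells in the traced and 1 in the non-traced library. Doublets were not removed, since the methods name no such step.

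Nearly every ependymal-like cell held RNA of the module. With each cell thinned to 1000 UMIs, a UMI of a member was found in 99.3% of the traced (interval 99.1 to 99.5) and 97.4% (96.3 to 98.2) of the non-traced ependymal-like cells, with medians of 5 and 3 members detected per cell. In the endothelial-like cells of the non-traced library, which should not make motile cilia, the share was 7.86% (7.45 to 8.30) at a similar depth (median 7609 UMIs before thinning, against 7062 in the ependymal-like cells of that library), and the median was 0 members. In the few traced endothelial-like cells (61) it was 24.6% (14.5 to 37.3). Without thinning, the shares were 100.0% and 99.98% in non-traced and traced ependymal-like cells, with medians of 15 and 20 members, and the endothelial-like cells of the non-traced library were at 50.6%.

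Summed over the 35 members, the level was 5811 CPM (interval 5789 to 5833) in traced against 4116 CPM (4073 to 4159) in non-traced ependymal-like cells. In endothelial-like cells it was 83.9 CPM (82.4 to 85.4) in the non-traced and 885 CPM (813 to 962) in the traced library. The log2 ratio of traced to non-traced ependymal-like cells was 0.50 (0.48 to 0.51). The ependymal markers went the other way, with a log2 ratio of -0.14 (-0.15 to -0.13). Cell by cell, the members summed to a median of 5636 CPM (lowest to highest cell 0.0 to 15815) in traced against 3910 CPM (346 to 8813) in non-traced ependymal-like cells. The range of the non-traced cells thus lay within that of the traced cells. The share of cells that overlap is not given here.

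The median difference of log2(CPM + 1), traced minus non-traced, was 0.32 over all 35 members and 0.02 over the 11292 genes that reached 5 CPM in either library. Without sub-clusters 4 and 9 of the ependymal-like cells, whose leading genes include endothelial ones, the median over the members was 0.20. Leading genes were taken against the ependymal-like cells of both libraries. The endothelial markers were at 346 CPM in non-traced cells of sub-cluster 4, against 303 CPM in 1 and 306 CPM in 5. Leaving 4 out thus does not remove the non-traced cells with endothelial transcripts. Of the members, 31 reached 5 CPM. A gene was counted as higher or lower when it reached 5 CPM and differed by at least 1.5-fold. By this rule 8 of 35 members were higher in the traced library (5.66% of all genes tested were) and 0 of 35 were lower (4.99% of all genes tested were). The members past the fold were Dnah7c, Dnah3, Dnah11, Dnah7b, Dnah6 and Dnah12 among the heavy chains, with Ccdc39 and Lrrc6. At 2-fold, 2 of them remained, Dnah7c and Dnah3. The share of all genes past 2-fold is not given here, so that this count has no background beside it. The counting interval of the log2 ratio lay above 0 for 22 members (29.3% of all genes tested) and below 0 for 1, Dnaic2 (25.0% of all genes tested), and held 0 for 8 of the members that reached 5 CPM.

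**Figure D1:**
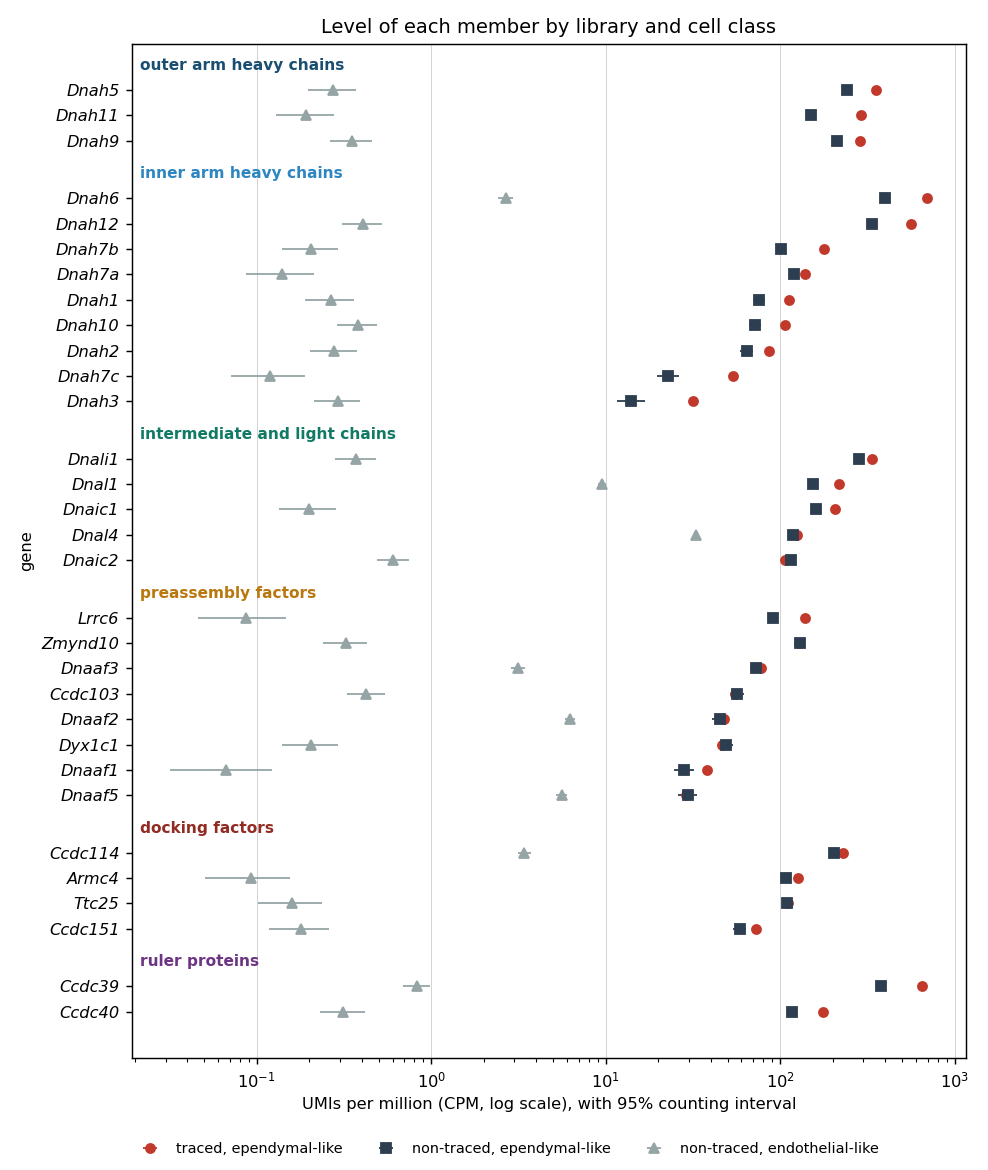
Level of each of the 31 members of at least 5 CPM, grouped by role, in CPM on a log axis, in traced ependymal-like (circles), non-traced ependymal-like (squares) and non-traced endothelial-like cells (triangles), with 95% counting intervals (bars). In ependymal-like cells the members span 14.02 CPM (Dnah3, non-traced) to 694 CPM (Dnah6, traced), and all lie above their endothelial-like level, with the narrowest gap for Dnal4.

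Levels were compared between genes as captured 3′ ends. The kit counts 1 end per molecule, so the CPM of a long and a short gene were not divided by length. On this scale 3 genes, Dnah6, Ccdc39 and Dnah12, gave 32.7% of the member UMIs of traced ependymal-like cells, against 27.0% in the non-traced library. All heavy chains together gave 49.8% (49.6 to 49.997) in traced and 43.9% (43.4 to 44.5) in non-traced cells, while preassembly factors gave 9.68% (9.56 to 9.79) and 12.2% (11.8 to 12.5).

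The outer arm heavy chains were higher in the traced library as a group, at 932 against 605 CPM (log2 ratio 0.62, interval 0.58 to 0.66). Dnah5, the heavy chain found along the whole axoneme, was at 356 CPM in traced cells, against 243 CPM in non-traced cells (log2 ratio 0.55, 0.48 to 0.61). Dnah9, its partner in the distal axoneme, was at 286 and 212 CPM (0.44, 0.37 to 0.51). Dnah11, its partner in the proximal axoneme, differed most of the outer heavy chains, at 290 and 151 CPM (0.95, 0.86 to 1.03). The order of Dnah9 and Dnah11 thus differed between the libraries: Dnah9 was above Dnah11 in non-traced cells, and both were at nearly the same level in traced cells. Dnah8 and Dnah17, the outer heavy chains known from sperm, were close to the floor of 3 counts. Dnah8 had 6 UMIs in all traced and 0 in all non-traced ependymal-like cells, and Dnah17 had 3 and 0. Dnah8 was higher in non-traced endothelial-like cells (148 UMIs, 0.98 CPM).

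The inner arm heavy chains summed to 1962 CPM in traced cells, against 1203 CPM in non-traced cells (log2 ratio 0.71, 0.68 to 0.73). Dnah6 was the member with the most UMIs, at 694 and 398 CPM (0.80, 0.75 to 0.85), followed among inner heavy chains by Dnah12, at 559 and 335 CPM (0.74, 0.68 to 0.80). Both are heavy chains of single-headed inner arms. Dnah2 and Dnah10, the heavy chains of the double-headed inner arm, were at 86.5 and 64.4 CPM (0.42, 0.30 to 0.55) and at 107 and 71.5 CPM (0.58, 0.46 to 0.70), and Dnah1 was at 113 and 75.9 CPM (0.57, 0.45 to 0.69). Dnah3 (chromosome 7, GRCm38 119922671 to 120095280) was the lowest of the heavy chains past 5 CPM, at 31.5 and 14.02 CPM (1.17, 0.90 to 1.45). Dnah14 had 36 and 5 UMIs, under 1 CPM in both libraries, with a log2 ratio of 0.44 and an interval from -0.91 to 2.15.

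Dnah7 is present in the mouse as 3 copies on chromosome 1, and the copies did not differ to the same extent between the libraries. Dnah7a (GRCm38 53397006 to 53706784) was at 139 and 121 CPM (log2 ratio 0.20, 0.11 to 0.30), Dnah7b (46066315 to 46373546) at 179 and 101 CPM (0.83, 0.73 to 0.93), and Dnah7c (46425592 to 46807476) at 53.6 and 22.8 CPM (1.23, 1.02 to 1.45). The intervals of Dnah7a and Dnah7b do not overlap. In the last 1000 bases of their longest transcripts, 63.2% of the 31-base words of Dnah7a, 61.6% of those of Dnah7b and 72.8% of those of Dnah7c occur in another copy, so that reads could be assigned to the wrong copy or dropped and each copy's value is uncertain. Summed over the copies, the level was 372 and 244 CPM (0.61, 0.54 to 0.67).

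**Figure D2:**
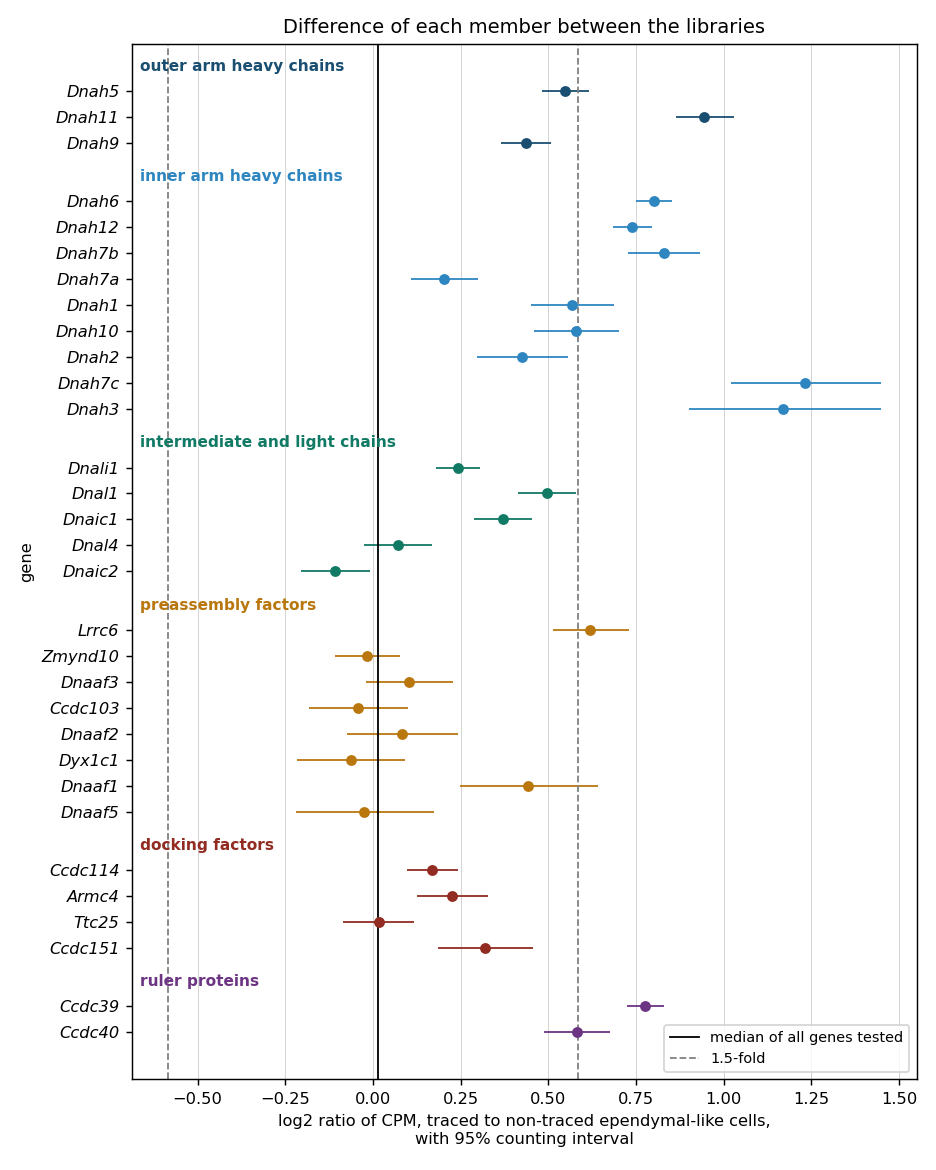
Log2 ratio of CPM, traced to non-traced ependymal-like cells, of the 31 members of at least 5 CPM by role, with 95% counting intervals (bars), the median difference of all genes tested (solid line) and 1.5-fold (dashed lines). The heavy chains and both ruler proteins lie to the right, from 0.20 (Dnah7a) to 1.23 (Dnah7c). Most preassembly factors lie near 0, and the docking factors run from 0.02 (Ttc25) to 0.32 (Ccdc151).

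The intermediate and light chains, the smaller subunits that hold the heavy chains together, were closer between the libraries, at 990 and 830 CPM (log2 ratio 0.25, 0.22 to 0.29). Dnaic1 and Dnaic2 are the paired intermediate chains of the outer arm. Dnaic1 was at 207 and 160 CPM (0.37, 0.29 to 0.45), and Dnaic2 was at 106 and 115 CPM (-0.11, -0.21 to -0.007), so that Dnaic2 was the single member of at least 5 CPM whose interval lay below 0. Dnal1, an outer arm light chain that binds a heavy chain, was at 218 and 155 CPM (0.50, 0.41 to 0.58). Dnali1, a light chain of inner arms, was at 334 and 282 CPM (0.24, 0.18 to 0.31). Dnal4 was at 124 and 118 CPM (0.07, -0.02 to 0.17). Dnal4 and Dnal1 were also the dynein subunits with the most UMIs in non-traced endothelial-like cells, at 33.0 and 9.48 CPM.

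The preassembly factors differed little as a group, at 562 CPM in traced cells, against 501 CPM in non-traced cells (log2 ratio 0.17, 0.12 to 0.21). Lrrc6, which acts with Zmynd10, was at 140 and 90.8 CPM (0.62, 0.51 to 0.73), whereas Zmynd10 was at 129 and 130 CPM (-0.02, -0.11 to 0.08). Dnaaf1, a leucine-rich repeat protein, was at 38.2 and 28.2 CPM (0.44, 0.25 to 0.64). The other factors had intervals that held 0. They were Dnaaf2 (log2 ratio 0.08), an HSP90 co-chaperone, Dnaaf3 (0.10), Dnaaf5 (-0.02), Dyx1c1 (-0.06), a tetratricopeptide co-chaperone, and Ccdc103 (-0.04), which binds microtubules, with levels between 29.0 CPM (Dnaaf5, traced) and 77.7 CPM (Dnaaf3, traced). The widest of these intervals, that of Dnaaf5, ran from -0.22 to 0.17. Dnaaf2, Dnaaf5 and Dnaaf3 were at 6.22, 5.59 and 3.15 CPM in non-traced endothelial-like cells. Dnaaf2, Dnaaf3, Dyx1c1 and Ccdc103 share exon sequence on the same strand with Gm49383 and Gm49384, Tnni3, Gm44503 and Fam187a in the annotation, so that some of their reads may have been counted for the neighbour or dropped.

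The docking factors, which anchor outer arms to the doublets, were at 538 and 479 CPM (log2 ratio 0.17, 0.12 to 0.22). Ccdc114 was at 228 and 203 CPM (0.17, 0.10 to 0.24), Armc4 at 127 and 108 CPM (0.23, 0.13 to 0.33), Ttc25 at 110 and 109 CPM (0.02, -0.09 to 0.12), and Ccdc151 at 73.0 and 58.5 CPM (0.32, 0.18 to 0.46). The ruler proteins Ccdc39 and Ccdc40, coiled-coil partners that set the repeat at which inner arms attach, were at 651 and 380 CPM (0.78, 0.73 to 0.83) and at 176 and 117.5 CPM (0.58, 0.49 to 0.68). Together they were at 826 and 497 CPM (0.73, 0.69 to 0.78).

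Dnah2os was distributed unlike the members of at least 5 CPM in ependymal-like cells. Ependymal-like cells held 0 UMIs of it in the traced library and 3 in the non-traced library, but there were 1877 UMIs (12.5 CPM) in non-traced endothelial-like cells, where its host Dnah2 had 42 UMIs (0.28 CPM).

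Dyneins outside the axoneme and other arm-related genes were measured beside the members. The 13 genes of cytoplasmic dynein 1, which carries cargo along cytoplasmic microtubules, had a log2 ratio of sums of -0.02 (-0.05 to -0.003). Dynll1 alone gave 62829 of the 104645 UMIs of this sum in traced cells. The median difference was 0.19, with 9 of 13 genes higher and 4 lower, and the heavy chain Dync1h1 was at 0.20. The genes ran from Dync1i2 (difference -0.23) and Dynlt3 (-0.22) to Dynlt1c (0.52) and Dync1i1 (0.64), with 1 of 13 past 1.5-fold higher and 0 of 13 lower. The 5 genes of dynein 2, the motor of intraflagellar transport, had a log2 ratio of 0.28 (0.24 to 0.32), and 1 of 5 was past the fold, with Wdr60 at 0.65, its heavy chain Dync2h1 at 0.43, Wdr34 at -0.05 and Dync2li1 at -0.30. The 20 further partners of the arms (such as Spag1 and Ruvbl1 of assembly, Daw1 of transport and Drc1 of the nexin link) had a log2 ratio of 0.07 (0.05 to 0.08) and a median difference of 0.06, and 1 of 20 was past the fold, from Pih1d1 (-0.32) and Dynlrb2 (-0.18) to Drc1 (0.47) and Cfap73 (0.59). None of these lists had a median difference as large as the 0.32 of the members. By the same rule 5.66% of all genes tested were past 1.5-fold higher and 4.99% lower.

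The signed difference between the libraries, traced minus non-traced, rose with transcript length, among all genes as among the members. Over the 10984 genes tested with an annotated transcript, the median difference ran from -0.15 in the shortest of 10 equal classes of transcript length to 0.16 in the longest (Spearman correlation 0.25 across genes, a description, since genes share the libraries). In the longest class 9.46% of genes were past 1.5-fold higher and 3.55% lower. Over the 31 members of at least 5 CPM the correlation with transcript length was 0.64, and over the 19 of them that are not heavy chains it was 0.36. The 12 heavy chains among them all fall in the longest class, and all 12 lay above its median of 0.16, with differences between 0.20 (Dnah7a) and 1.197 (Dnah7c) and a median of 0.65. The 19 other members had a median of 0.17. With each difference taken relative to the median of genes of like length, 7 members were past 1.5-fold higher and the median over all 35 was 0.27. The share of all genes past the fold on that scale is not given here. With the span of the gene on the chromosome in place of transcript length, the correlation was 0.29 over all genes tested. It was 0.68 over the members tested and 0.47 over those that are not heavy chains. The part of transcript length or gene span in the difference was not tested.

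**Figure D3:**
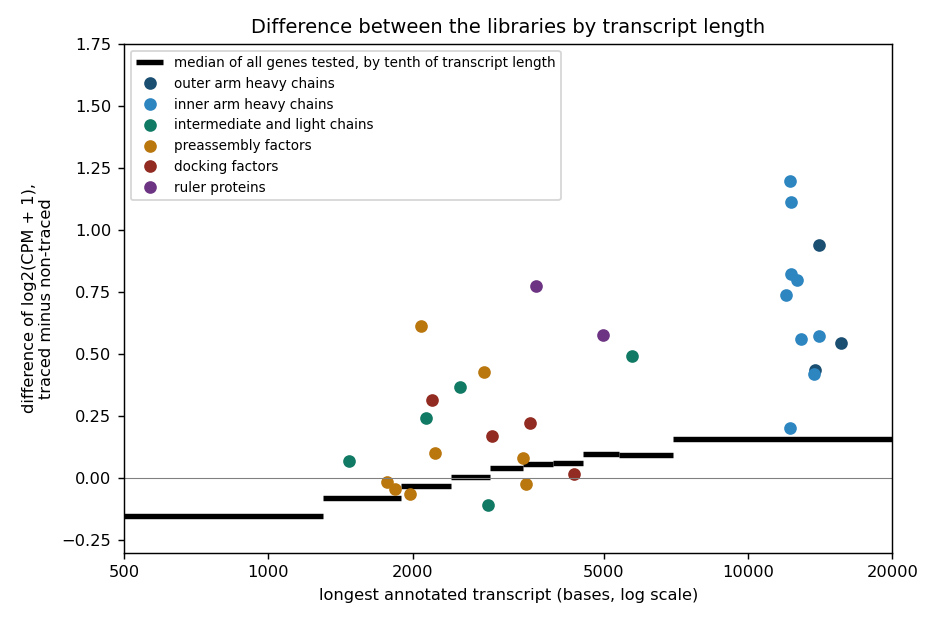
Difference of log2(CPM + 1), traced minus non-traced ependymal-like cells, against the longest annotated transcript in bases (log axis), for the 31 members of at least 5 CPM (points, coloured by role), with the median of all genes tested in each of 10 classes of transcript length (black bars). All 12 heavy chains lie above the bar of the longest class at 0.16, and 10 of the 19 other members lie above that bar, the highest of the bars, with Ccdc39 (0.78), Lrrc6 (0.61) and Ccdc40 (0.58) farthest from it.

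The ependymal-like cells were then divided into 10 sub-clusters on genes that left out all members, the class markers and the subtype markers. The sub-clusters are called by number and leading genes. Most were nearly of 1 library, so that a sub-cluster may be that library rather than a subtype. Sub-clusters 0, 2, 3, 6, 7 and 8 held 55 to 1255 traced and at most 18 non-traced cells, and sub-cluster 4 held 610 non-traced and 4 traced cells. Sub-clusters 1 (849 traced, 89 non-traced cells) and 5 (201 and 363) had at least 50 cells of each library. Sub-cluster 9 held 11 and 24 cells and was not compared.

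In sub-clusters with at least 50 cells of a library, the summed members ranged among traced cells from 4419 CPM in sub-cluster 7 to 8682 CPM in sub-cluster 8, and among non-traced cells from 3952 CPM in sub-cluster 4 to 5504 CPM in sub-cluster 1. In the larger traced sub-clusters the levels were 5494 CPM in 0 (led by Atf3, Btg2, Junb and Fos), 7073 CPM in 1 (led by Sntn, Anxa8 and Sncg), 5831 CPM in 2 (led by Rn7sk and Hoxd10), 5053 CPM in 3 (led by the ribosomal RNA rows Gm42418 and Rn18s-rs5) and 5701 CPM in 6 (led by Pcdh8). Sub-cluster 5 (led by Ucma and Vtn) was at 5627 CPM in traced cells, against 3962 CPM in non-traced cells. Every traced sub-cluster of at least 50 cells was above the non-traced sub-clusters 4 and 5. The non-traced cells of sub-cluster 1 were above the traced cells of 3 and 7 and level with those of 0 within counting error.

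**Figure D4:**
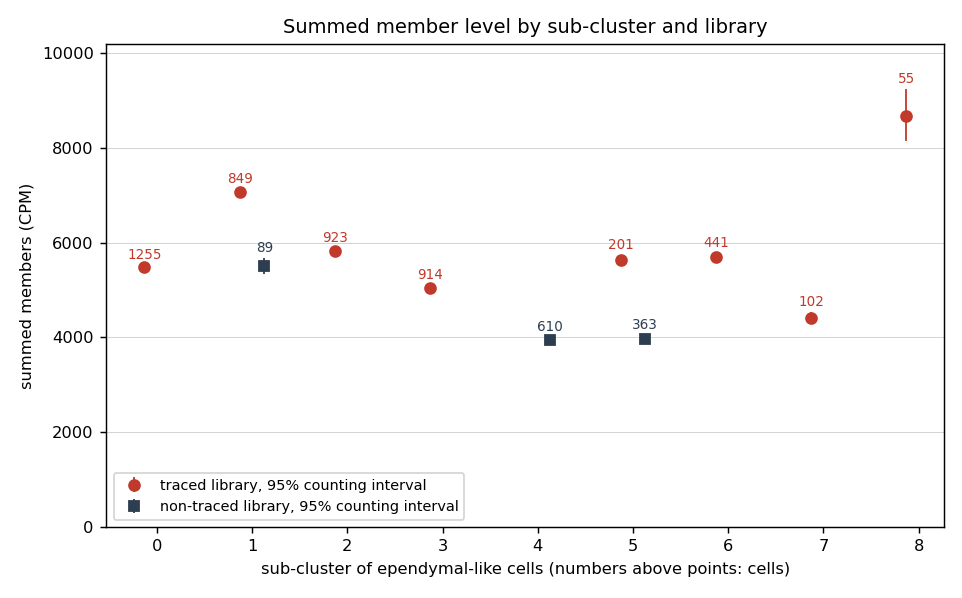
Summed level of the 35 members in CPM in each sub-cluster of at least 50 cells of a library, traced (circles) and non-traced (squares), with 95% counting intervals (bars) and the number of cells above each point. Sub-cluster 1 is high in both libraries (7073 and 5504 CPM), and sub-cluster 8, with 55 cells, is the highest at 8682 CPM.

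Sub-cluster 1 had a higher level of the module than the other cells in both libraries. Its leading genes include Sntn, which encodes a protein of the ciliary tip, and Anxa8, Sncg and Pvalb, of which only 1 was found in at least 50% of its cells, too few to name it from these markers. Against the other ependymal-like cells of the same library, the log2 ratio of the summed members was 0.36 (0.35 to 0.38) in traced and 0.47 (0.42 to 0.51) in non-traced cells. The ependymal markers were also higher there, at 12898 CPM in its traced and 14434 CPM in its non-traced cells. In the traced library 4 members were past 1.5-fold higher (3.35% of all genes tested) and 0 lower (3.49%). In the non-traced library 7 were higher (11.7%) and 0 lower (11.6%). Dnah3, Dnah5 and Dnah1 were past the fold in both.

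Among the traced sub-clusters of at least 50 cells other than 8, Dnah3 had the widest ratio of highest to lowest level of the members of at least 5 CPM. With the shallow sub-cluster 8 included, Dnaaf5 (0 UMIs there) and Ccdc103 (1 UMI there) ranged more widely. In traced cells it was at 77.8 CPM (interval 72.2 to 83.7) in sub-cluster 1 and 20.0 CPM in the other cells (log2 ratio interval 1.81 to 2.11). In non-traced cells it was at 60.8 CPM (44.8 to 80.6) in sub-cluster 1 and 9.31 CPM in the other cells (interval 2.15 to 3.25). Sub-cluster 5 was at the other end, with 10.3 CPM (6.36 to 15.7) in traced and 3.44 CPM (1.57 to 6.53, 9 UMIs) in non-traced cells. The remaining traced sub-clusters lay between, from 15.1 CPM in 3 to 52.9 CPM in 8, with 20.9 in 0, 23.4 in 2, 18.7 in 6 and 30.99 in 7. Dnah5 was likewise higher in sub-cluster 1 (489 CPM in traced cells, against 460 CPM in non-traced cells) than in sub-cluster 5 (278 and 171 CPM). Dnah10 was at 165 CPM in traced cells of sub-cluster 1 and 92.3 CPM in the other traced cells. Dnah7a lay the other way, at 137 and 118 CPM in sub-cluster 1 and 168 and 145 CPM in sub-cluster 5.

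Within sub-clusters 1 and 5, where cells of both libraries could be set side by side, the traced cells were higher. The log2 ratio of the summed members was 0.36 (0.32 to 0.41) in sub-cluster 1 and 0.51 (0.47 to 0.54) in sub-cluster 5. When cells with UMIs of at least 2 vascular genes were left out and the rest clustered anew, the lowest ratio within a sub-cluster was 0.24. Those sub-clusters are other sets of cells, so this is not a value of sub-cluster 1 or 5. In sub-cluster 1, 7 members were past 1.5-fold higher (10.4% of all genes tested) and 0 lower (10.1%). In sub-cluster 5, 11 were higher (11.0%) and 0 lower (6.83%). The median difference over heavy chains of at least 5 CPM was 0.54 and 0.68, and over the other members of at least 5 CPM 0.09 and 0.23. Dnah7c (1.16 and 0.95), Lrrc6 (0.88 and 0.69), Dnah7b (0.59 and 0.67) and Dnah11 (0.63 and 0.75) were past the fold in both. Zmynd10 differed by 0.02 and 0.08 and Dnaic2 by 0.04 and -0.24. Dnah3 was at 77.8 against 60.8 CPM in sub-cluster 1 (difference 0.35), with a log2 ratio interval from -0.07 to 0.81 that held 0, and at 10.3 against 3.44 CPM in sub-cluster 5 (difference 1.34, interval 0.39 to 2.89), where it was past the fold. Sub-cluster 1 held 849 of 4755 traced and 89 of 1159 non-traced ependymal-like cells, and the part of this share in the overall difference of Dnah3 was not tested. The endothelial markers differed between the libraries here as well, at 18.4 and 303 CPM in sub-cluster 1 and 6.84 and 306 CPM in sub-cluster 5. So did the median mitochondrial share, at 3.89% and 6.00% in sub-cluster 1 and 3.50% and 5.41% in sub-cluster 5. The part of either in the differences was not tested.

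Sub-cluster 7 (102 traced cells) was led by Mki67, Pbk and Top2a, genes of dividing cells, although only 1 of the 8 cycling markers was found in at least 50% of its cells, so that it was not named. Its summed members were lower than in the other traced cells (log2 ratio -0.41, -0.44 to -0.37), as were its ependymal markers, at 7270 CPM. By the fold rule 6 members were lower (6.63% of all genes tested) and 1 higher (16.1%). The lower ones were the heavy chains Dnah10, Dnah9, Dnah6, Dnah5 and Dnah1 and the light chain Dnal4. Dnah10 was at 54.4 CPM, against 108 CPM in the other traced cells. Dnaaf2, the co-chaperone of arm assembly, was the member that was higher, at 72.6 CPM (58.8 to 88.6) against 47.0 CPM.

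Sub-cluster 8 (55 traced cells) stood apart in depth and in the members' balance. Its median was 1708 UMIs, against 7664.5 to 11140.5 in the larger traced sub-clusters, and its median mitochondrial share was 9.52%, against 3.21% to 4.49%. The outer heavy chains were at 1879 CPM and the inner ones at 3432 CPM. Preassembly factors were at 485 CPM, against 511 to 690 CPM in the other traced sub-clusters of at least 50 cells. Sub-cluster 8 held 113343 UMIs in all and no interval is given for these sums, so that its lower preassembly level may be counting error. By the fold rule 13 members were higher (30.9% of all genes tested) and 6 lower (29.4%). Dnah11 was at 618 CPM (481 to 780), and Dnal4 had 3 UMIs (26.5 CPM), Ccdc103 had 1 and Dnaaf5 had 0. For Dnaaf5 a count of 0 was within counting error of the 29.1 CPM of the other traced cells. Its ependymal markers were at 7252 CPM. Depth and mitochondrial share moved with this pattern, and their part in it was not tested.

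**Figure D5:**
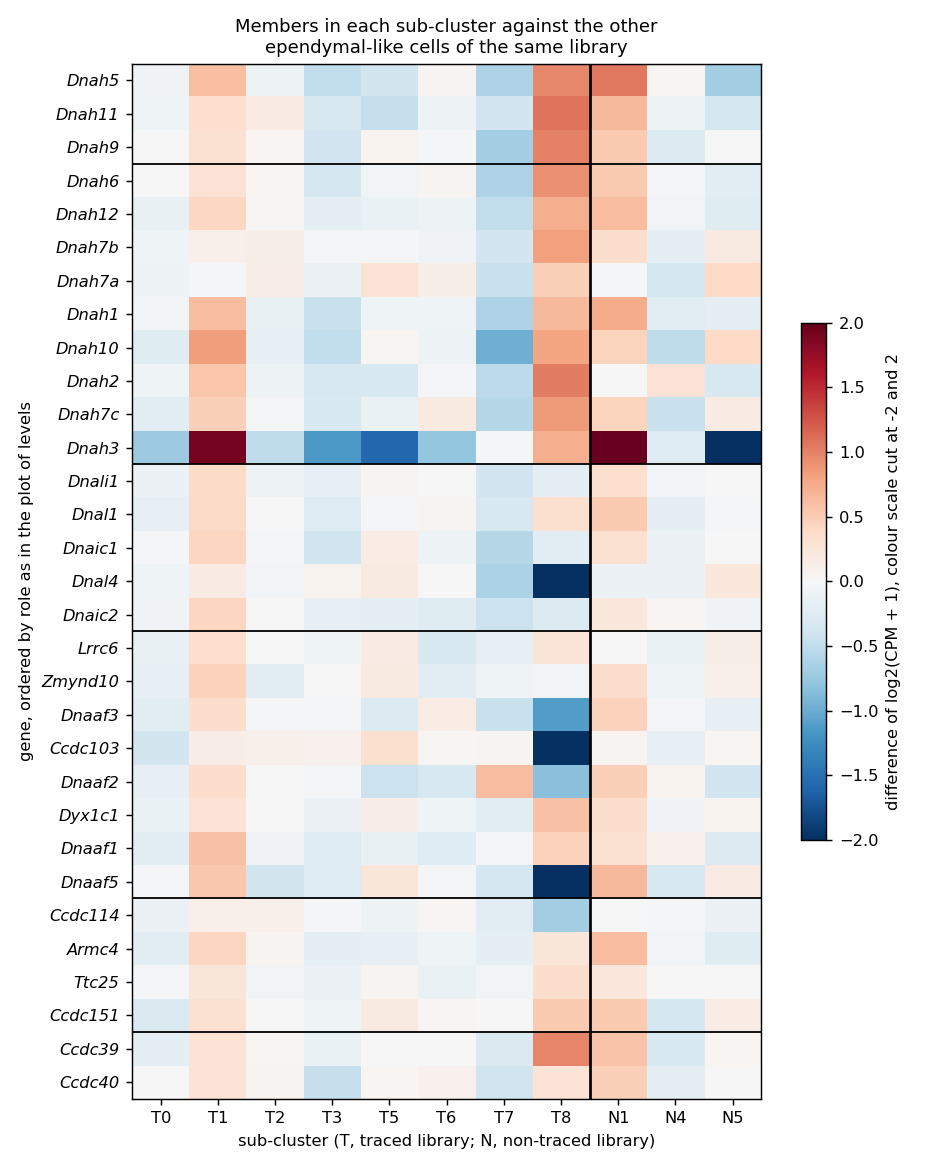
Difference of log2(CPM + 1) of each member of at least 5 CPM (rows, by role) between a sub-cluster and the other ependymal-like cells of the same library (columns T, traced; N, non-traced), red higher and blue lower, with the colour scale cut at -2 and 2. Dnah3 is red in sub-cluster 1 of both libraries (1.91 and 2.58) and blue in sub-cluster 5 of both (-1.57 and -2.15), and in T8 the heavy chains are red while several shorter members are blue.

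The other sub-clusters differed less from the remaining cells of their library. Sub-cluster 0, led by immediate early genes, had a log2 ratio of -0.11 (-0.12 to -0.10), with 1 member lower (1.20% of all genes tested) and 0 higher (1.59%). Sub-cluster 3 was at -0.24 (-0.25 to -0.22), with 1 lower (4.24%) and 0 higher (0.182%), and sub-cluster 6 at -0.03 (-0.05 to -0.01), with 1 lower (2.92%) and 0 higher (1.11%). In each of these the lower member was Dnah3. In sub-cluster 3 the median difference was -0.12 over all genes tested and -0.19 over the members tested. Sub-cluster 2 was at 0.01 (-0.01 to 0.02), with 0 members past the fold in either direction (0.380% higher, 1.91% lower). In sub-cluster 5, 1 member was lower in traced cells (6.45%), again Dnah3, and 0 were higher (8.43%), and Dnah3 and Dnah5 were lower in non-traced cells (6.98%) and 0 higher (6.95%). The non-traced sub-cluster 4, whose leading genes Ly6c1 and Ly6a are endothelial, was at -0.12 (-0.15 to -0.09), with 0 members past the fold (3.86% higher, 6.17% lower). Its endothelial markers, at 346 CPM, were near the 303 and 306 CPM of the non-traced cells of sub-clusters 1 and 5.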

How the data were processed

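Cells sorted as live CD45-negative CD133+ were captured with a droplet kit that counts 3′ ends. Per the submitters' processing notes and the study's methods, the authors made the deposited counts (whole UMI counts per gene and cell) with Cell Ranger 3.0.2 (STAR 2.5.1b, mm10) and analysed them with R 3.6.0 and Seurat 3. How many mice were pooled for these libraries is not given in the sources used here. The 2 tables were used as deposited. Cells of both libraries were integrated and clustered with Seurat 5.3.0 (R 4.3.3) on 2000 features, 20 components and a resolution of 0.8, and the part of each cluster in each library was named from marker lists when at least 3 markers were found in 50% of its cells. The thresholds of this naming were set after the data were seen, so that the rebuilt names may account for a difference from the study. Ependymal-like cells were sub-clustered without integration, leaving out members and all listed marker genes. UMIs were summed per library and class and given as CPM. Ratios have exact conditional intervals, levels exact Poisson intervals and shares Clopper-Pearson intervals (95%), covering counting error only. Differences were taken on the log2(CPM + 1) scale, which understates those of low genes. With 1 library per group no p-value was computed. The fold and thinning steps were tested on simulated counts (Python 3.11.15, scipy 1.17.1). Gene positions and transcript lengths came from the GRCm38 annotation.

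The members and lists were chosen with earlier results of these data known. By rule, all members were accounted for, heavy chains above 3 counts and all members of other roles were given with values, and for other lists and sub-clusters those with the largest and smallest differences were named. Pih1d3 was not analysed here. Tried in place of the main settings were other ways to name cells, cells left out by vascular UMIs or high totals, a stricter cell filter, other minimum levels, pseudocounts, folds, scalings and thinning depths, and other sub-clusterings.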

Additional observations from a re-analysis of the deposited data

How the results depend on the processing

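No result changed direction under the alternatives run. Of the alternative values, 345 stayed within the limits set for them, 50 moved and 0 reversed. The log2 ratio of the summed members (0.50) was 0.52 with cells named singly by markers, 0.52 without cells with UMIs of at least 2 vascular genes, 0.53 without the 5% of cells with the most UMIs and 0.43 without the sub-clusters led by endothelial genes. The 8 members past 1.5-fold became 2 at 2-fold. All 8 stayed higher in every alternative in which they were counted. The median difference (0.32) was 0.34 without integration, 0.37 without the 5% of cells with the most UMIs, 0.42 with a pseudocount of 0.1 CPM, 0.42 over members of at least 5 CPM, 0.27 when centred within 10 classes of transcript length and 0.20 without the sub-clusters led by endothelial genes. These last 2 alternatives were chosen after seeing the data. The sub-clusters led by endothelial genes were 4 and 9, and leaving them out kept the non-traced cells with endothelial transcripts of the other sub-clusters. The share of cells with a member UMI (99.3% traced, 97.4% non-traced) was 99.98% and 100.0% without thinning and 100.0% in both at 3000 UMIs. The log2 ratio of the highest to the lowest traced sub-cluster (0.97) was 0.73 when cells with vascular UMIs were left out and the rest clustered anew. That clustering gave 9 traced sub-clusters in place of 8, at 4289 to 7099 CPM. In the main clustering, traced sub-clusters 7 and 8, which set the 0.97, held 0 cells with UMIs of at least 2 vascular genes. Within sub-clusters the lowest ratio (0.36) was 0.44 on integrated values and 0.24 without cells with vascular UMIs, and the highest (0.51) was 0.58 on integrated values. Both alternatives clustered the cells anew, so that their sub-clusters are not the same sets of cells. The ependymal-like share of the traced library (98.5%) was 97.9% without integration and 97.0% with whole clusters named, and that of the non-traced library (4.56%) was 5.52% with whole clusters named. Cells named singly by markers were 4748 of 4825 traced and 679 of 25411 non-traced cells, against 4755 and 1159 ependymal-like cells. Where no cause is shown by the alternative itself, the cause was not tested. No paired analysis was possible because each group was 1 library, and for the same reason no replicate could be left out. Members at or under 3 counts in both libraries (Dnah17 and Dnah2os) were below what this depth can compare.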

Other observations

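Parts of clusters led by ependymal markers that also held most of the endothelial markers were left unnamed and entered no comparison. Single ependymal-like cells with some endothelial UMIs were kept. In the non-traced library these parts held 684 cells, with a median of 14113.5 UMIs, against 7062 in its ependymal-like cells, and in the traced library 2. A further 40 non-traced cells, led by endothelial markers and also holding ependymal ones, were unnamed as well and are not in these sums. In the non-traced ones the members summed to 2041 CPM (interval 2013 to 2068), the ependymal markers to 5216 CPM and the endothelial markers to 11518 CPM. Pih1h3b, a relative of the listed preassembly factor Pih1d3, was chosen after its values were seen. Its level in ependymal-like cells was 53.0 CPM (traced) and 39.3 CPM (non-traced).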
